A study of Schmidtea mediterranea with 35 samples.

Results

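The transcripts described here are those whose level was higher after knockdown of zfp1 and after knockdown of p53 than in the control at both of the later times, days 9 and 13, in sorted stem cells from the flatworm Schmidtea mediterranea, a planarian. They were chosen by level. The libraries form 9 groups by RNAi and day, and in each group the median RPKM (reads scaled to transcript length in kilobases and to library depth) was taken, 1 RPKM was added and the log2 formed. The difference D is this value of a knockdown minus that of the control on the same day. A transcript was kept when its highest group median was at least 3 RPKM and D was 1 or higher in all 4 comparisons of the knockdowns with the control at days 9 and 13. Of 25462 transcripts in the table, 11932 reached 3 RPKM in some group and 60 met the whole rule. The same rule turned round, with D of -1 or lower in all 4 comparisons, was met by 69 transcripts.

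Planarian stem cells, called neoblasts, are the dividing cells of the adult animal and the source of all its other cell types. The X1 gate of a Hoechst-stained cell suspension collects cells with replicated DNA and so holds the cycling neoblasts. The zinc finger gene zfp-1 marks neoblasts fated to the epidermis and is needed for their progeny, and the planarian p53 homolog is known from the same lineage and from control of stem cell division.

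Animals were fed liver paste mixed with HT115 bacteria making double-stranded RNA against zfp1 or against p53. Controls were fed double-stranded RNA for unc22, which the submitters call a non-targeting control. All animals came from the clonal CIW4 line, so the groups share 1 genetic background. X1 cells were collected at days 6, 9 and 13. Each group held 4 libraries, except the control at day 13, which held 3 after the submitters left out 1 library for low yield. The labels do not say whether libraries of a group came from separate cultures of animals, so the p-values rest on the variation among the libraries given, and that may be technical in origin.

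Whole reads recovered from the RPKM values summed to between 4391559 and 26115474 per library. For the 60 transcripts the median read count per transcript in a library was 15 to 433. The following 3 libraries stood apart, each with 4546 or more transcripts at 0. They were replicate 1 of zfp1 RNAi at day 6, replicate 5 of the same RNAi at day 13, and replicate 5 of the day 13 control. The table pairs its identifiers with no gene names and no annotation or sequence was used here. The levels of zfp1 and p53, the markers of neoblasts and of other cell types, and the functions of the 60 transcripts were therefore not analysed.

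The rule fixes that the 60 transcripts were higher after either knockdown at days 9 and 13, so the levels there are a description with no test. In cells given zfp1 RNAi, the median of the 60 transcripts was 6.7 ± 1.6 RPKM at day 6, 9.99 ± 0.97 RPKM at day 9 and 8.32 ± 0.73 RPKM at day 13 (SD over library medians, n = 4 each). With p53 RNAi it was 7.42 ± 1.3, 8.23 ± 1.1 and 10.6 ± 1.1 RPKM at these days (SD, n = 4 each). In the unc22 control it was 3.76 ± 0.5, 3.13 ± 0.76 and 2.37 ± 0.39 RPKM (SD, n = 4, 4 and 3). The lowest library after a knockdown, zfp1 RNAi day 6 replicate 4 with a median of 4.58 RPKM, was above the highest control library, at 4.32 RPKM. In sorted bulk cells a change in the share of a cell type and a change in RNA per cell cannot be told apart.

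**Figure D1:**
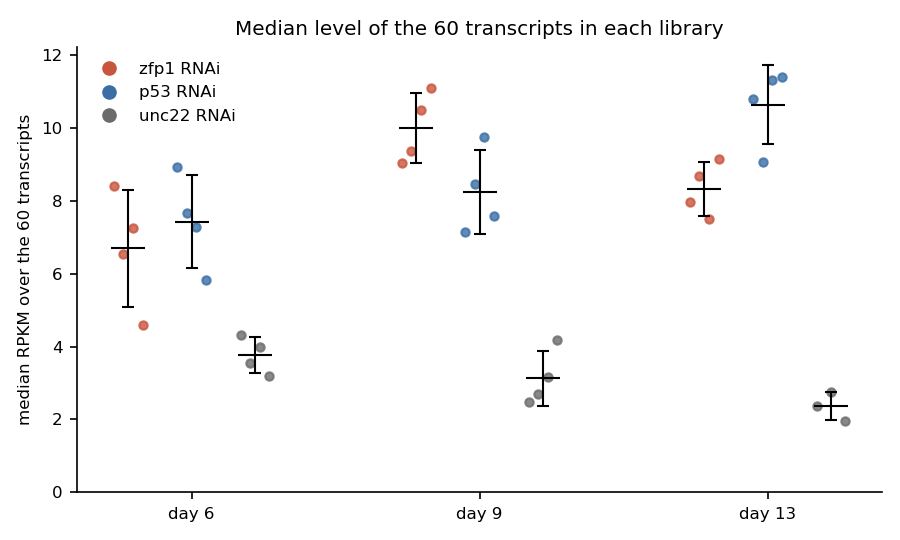
Median RPKM over the 60 transcripts (vertical axis) in each library (points), by day (horizontal axis) and RNAi (colour, zfp1 left, p53 middle, unc22 right). Bars show the mean and SD over libraries; every knockdown library lies above every control library, and the control is lowest at day 13 (2.37 ± 0.39 RPKM).

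The transcripts were mostly of low to moderate abundance. The highest group median was under 10 RPKM for 25 of them, from 10 to 30 RPKM for 24, from 30 to 100 RPKM for 8 and above 100 RPKM for 3. In the day 6 control their median was 3.42 RPKM (quartiles 2.26 and 7.54). For all 11932 transcripts that reached 3 RPKM in some group it was 11.69 RPKM (quartiles 4.66 and 30.08). The rule asks for a control below both knockdowns at days 9 and 13, so a low control level is in part built in. After p53 RNAi at day 13, where the 60 were highest, the median of their group medians was 10.5 RPKM. Transcript lengths, read from the steps of the RPKM values, ran from 306 to 3919 bases with a median of 1070 bases, against a median of 1309 bases for the 11932. Of the 60, 9 were longer than 2000 bases (15%, against 26.7% of the 11932). All 60 were kept by the filter on low values, which the rule itself ensures, and 3 of them were at 0 in at least 1 library.

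**Figure D2:**
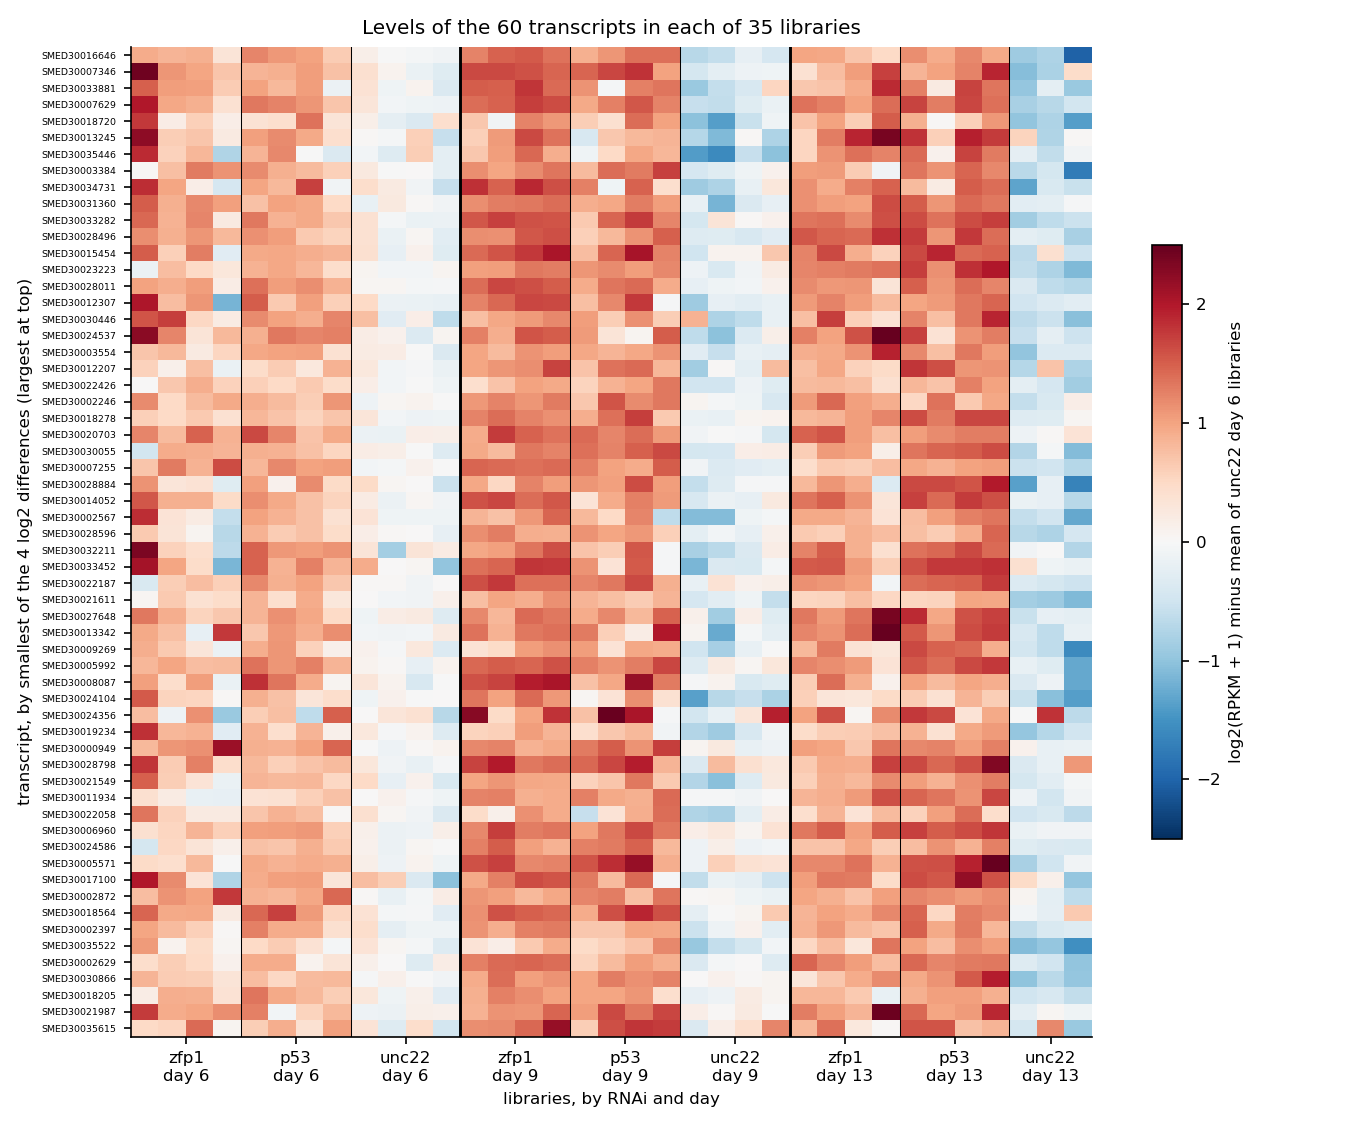
Level of each of the 60 transcripts (rows, largest smallest D at the top) in each of the 35 libraries (columns, by day, with zfp1, p53 and unc22 from left to right). Colour gives log2(RPKM + 1) minus the mean of the unc22 day 6 libraries; the knockdown columns at days 9 and 13 are red throughout most rows, those at day 6 are paler, and most control cells at day 13 are blue.

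The 8 transcripts with the highest smallest D had values of 1.37 to 1.72 there. SMED30016646 led them. It was at 19.4, 23.1, 24.2 and 21.4 RPKM after zfp1 RNAi at day 9 and at 15.1, 17.7, 21.6 and 21.5 RPKM after p53 RNAi, against 4.37, 4.79, 6.55 and 5.5 RPKM in the control. At day 13 the values were 16.2, 15.9, 13.0 and 11.3 RPKM after zfp1 RNAi and 18.4, 15.6, 19.1 and 15.9 RPKM after p53 RNAi, against 3.69, 4.06 and 1.14 RPKM in the control. No knockdown library overlapped a control library on either day. The control value of 1.14 RPKM came from replicate 5, which stood apart.

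SMED30007629 was the most abundant of these 8. Its levels at day 13 were 182, 170, 143 and 186 RPKM after zfp1 RNAi and 229, 172, 226 and 184 RPKM after p53 RNAi, against 39.6, 43.1 and 50.9 RPKM in the control. At day 9 it was at 188, 198, 236 and 219 RPKM with zfp1 RNAi and at 136, 170, 209 and 167 RPKM with p53 RNAi, against 47, 45.7, 56.6 and 63 RPKM in the control. The groups were apart in every library, and here the control replicate that stood apart was the highest of the 3. SMED30007346, a transcript of 542 bases, was at 53.3, 53.3, 51.5 and 47 RPKM after zfp1 RNAi and at 46.8, 54.4, 59.7 and 34.1 RPKM after p53 RNAi at day 9, against 11.9, 13.7, 14.9 and 15.2 RPKM in the control. At day 13 its control libraries were at 7.27, 9.01 and 22.8 RPKM, the last in replicate 5, and the lowest zfp1 library, at 21.7 RPKM, was below that value.

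Weaker transcripts of the same 8 varied more between libraries. SMED30033881 was at 7.21, 7.13, 8.94 and 6.65 RPKM after zfp1 RNAi at day 9 and at 5.23, 1.8, 5.88 and 6.29 RPKM after p53 RNAi, against 0.519, 0.9, 1.19 and 3.19 RPKM in the control. The zfp1 libraries were clear of the control, while the lowest p53 library lay within its range. SMED30018720, of 329 bases, had control values of 0.265, 0, 0.76 and 1.4 RPKM at day 9 and of 0.299, 0.524 and 0 RPKM at day 13. Its knockdown libraries at these days lay between 1.42 and 6.37 RPKM after zfp1 RNAi and between 1.66 and 5.77 RPKM after p53 RNAi. All of them were above the control of their day, at a depth of 8 reads in the median library. At day 9 this was by a narrow margin. The lowest knockdown library (zfp1 RNAi replicate 2, 1.42 RPKM) and the highest control library (replicate 4, 1.4 RPKM) held 5 reads each. SMED30013245 and SMED30035446 had their highest group medians after p53 RNAi at day 13, 11.86 and 10.35 RPKM, against 2.81 and 2.8 RPKM in the control. SMED30013245 overlapped the control on both later days. Its lowest p53 library at day 9 was at 1.86 RPKM, against control libraries of up to 2.86 RPKM. Its lowest zfp1 library at day 13 was at 4.43 RPKM, against control libraries of up to 4.5 RPKM. SMED30003384, the longest of the 60 at 3919 bases, was at 8.19, 8.34, 5.98 and 3.21 RPKM after zfp1 RNAi at day 13 and at 10.2, 8.73, 11.3 and 9.28 RPKM after p53 RNAi, against 1.78, 2.32 and 0.33 RPKM in the control.

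**Figure D3:**
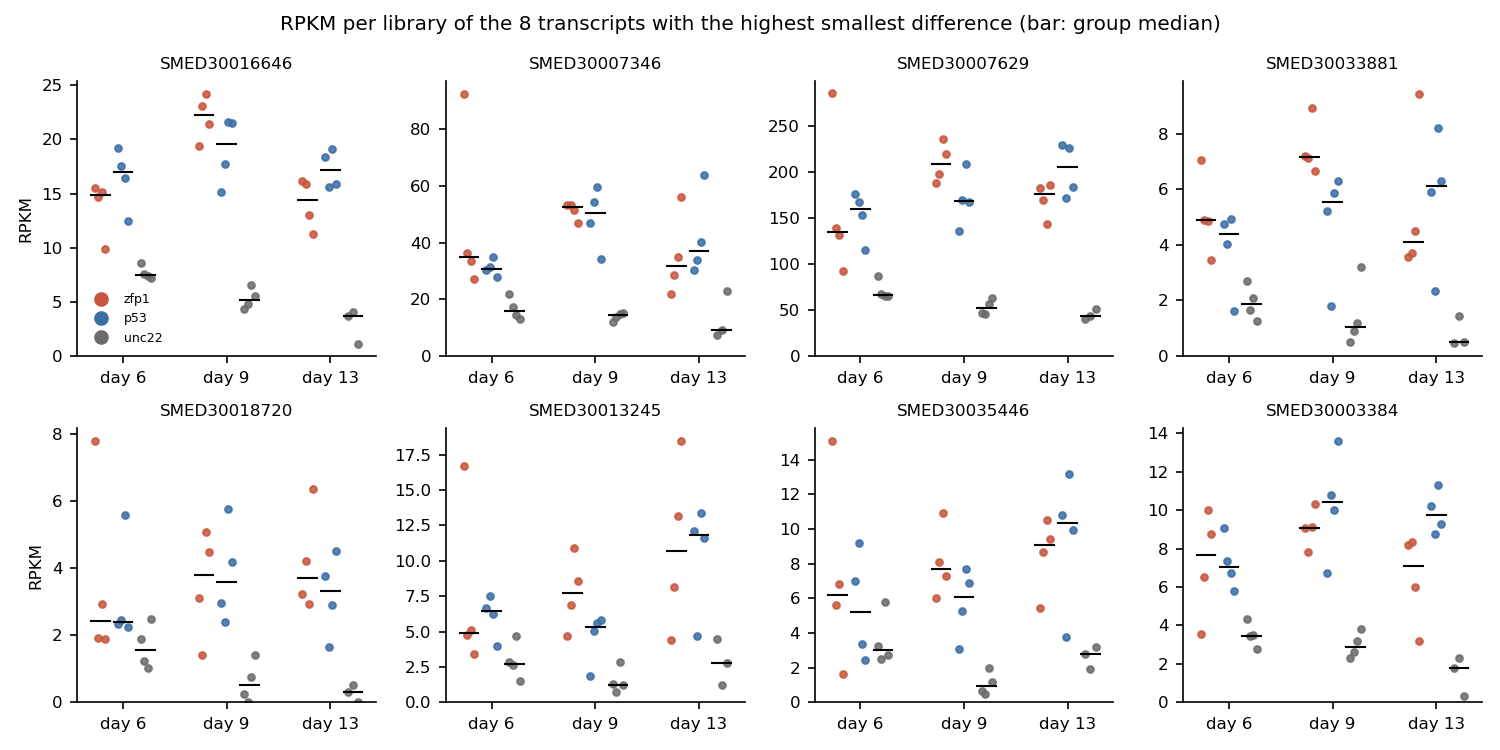
RPKM (vertical axes, each from 0) of the 8 transcripts with the highest smallest D in each library (points) at days 6, 9 and 13, with zfp1 left, p53 middle and unc22 right within each day; short bars are group medians. SMED30016646 and SMED30007629 have no overlap between knockdown and control libraries on any day, while SMED30013245 and SMED30035446 overlap at day 6. SMED30013245 also overlaps the control at day 9 (p53 RNAi) and at day 13 (zfp1 RNAi).

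Of the 3 transcripts above 100 RPKM, SMED30000949 and SMED30002872 had a smaller D than SMED30007629. SMED30000949 had the highest level of all 60. It was at 231, 237, 185 and 193 RPKM after zfp1 RNAi and at 250, 286, 220 and 334 RPKM after p53 RNAi at day 9, against 105, 119, 88.1 and 91.7 RPKM in the control. SMED30002872 was at 106, 101, 86.9 and 96.8 RPKM with zfp1 RNAi and at 115, 120, 82.9 and 124 RPKM with p53 RNAi on that day, against 50, 50.4, 45 and 43.6 RPKM in the control. Both were apart from the control in every library of that day, with a smallest D of 1.10 and 1.04. SMED30033452, the shortest of the 60 at 306 bases, was at 63.7, 67, 84.5 and 83.6 RPKM after zfp1 RNAi and at 52.6, 30.2, 71 and 23.3 RPKM after p53 RNAi at day 9, against 10.2, 18.3, 18 and 22.9 RPKM in the control. Its lowest p53 library was thus close to the highest control library.

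Many of the 60 lay near the limit of the rule. The smallest D was under 1.25 for 46, from 1.25 to 1.5 for 9 and 1.5 or higher for 5. The 3 just inside were SMED30035615, SMED30021987 and SMED30030866, with a smallest D of 1.005, 1.015 and 1.019. SMED30021987 and SMED30030866 were apart from the control in all 4 comparisons, while SMED30035615 overlapped it in all 4. At day 13 SMED30035615 was at 4.53, 7.21, 2.78 and 2.22 RPKM after zfp1 RNAi, against 1.32, 6.22 and 0.659 RPKM in the control. The 3 just outside were SMED30029791, SMED30023566 and SMED30025751, at 0.994, 0.985 and 0.981. SMED30025751 missed the limit at day 9 with p53 RNAi, where it was at 34.1, 18.2, 18.9 and 21.8 RPKM, against 5.67, 8.38, 11.3 and 11.8 RPKM in the control. A further count of 22 transcripts of at least 3 RPKM had a smallest D from 0.9 up to the limit, these 3 included. The limiting comparison was p53 RNAi at day 9 for 30 of the 60, zfp1 RNAi at day 13 for 16, zfp1 RNAi at day 9 for 12 and p53 RNAi at day 13 for 2.

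The day 6 libraries gave a comparison that the rule did not use, since no day 6 D entered it and no transcript of the 60 reached its highest median at day 6. Already at this time all 60 had a positive log2 difference from the control after either knockdown in limma, on log2(RPKM + 1). After zfp1 RNAi the median difference was 0.67, from 0.05 to 1.31, against a median of -0.05 over all 19206 tested transcripts. After p53 RNAi it was 0.85, from 0.36 to 1.19, against 0.00. The same 4 control libraries served for either knockdown. A D of 1 or higher was already reached by 16 of the 60 after zfp1 RNAi and by 16 after p53 RNAi, against 0.578% and 0.536% of the 11932 transcripts of at least 3 RPKM. Positive differences were found in 42% of all tested transcripts after zfp1 RNAi and in 49.7% after p53 RNAi.

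With Benjamini-Hochberg adjustment over all tested transcripts, 16 of the 60 (26.7%) had risen after zfp1 RNAi at day 6 and none had fallen, where 0.422% of all tested transcripts were called higher and 0.88% lower. All 4 zfp1 libraries lay above all 4 control libraries for 22 of the 60, against 1.69% of tested transcripts. The counts of calls changed when single libraries, or the other groups, were left out of the fit. The share of all tested transcripts called was counted in the main fit alone. The counts of calls and of unadjusted p-values in the alternatives below thus have no such share beside them. Without zfp1 RNAi day 6 replicate 1, which stood apart, 12 were called, and without all 3 such libraries 21. Without that replicate the median difference was 0.53, and 57 of 60 were positive; the remaining zfp1 libraries were clear of the control for 30 of the 60, against 5.84% of tested transcripts. Without unc22 day 6 replicate 3 the count was 9. Fitted without the other groups, the comparison called none of the 60, with 31 at an unadjusted p under 0.05 in limma, and voom on the recovered reads called 14.

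After p53 RNAi at day 6, 24 of the 60 (40%) had risen and none had fallen, where 0.411% of all tested transcripts were called higher and 0.692% lower. The p53 libraries lay above all control libraries for 42 of the 60, against 4.48% of tested transcripts. The count was 34 with the other groups left out of the fit and 34 without the 3 libraries that stood apart. For these alternatives and those that follow, the share of all tested transcripts called was not counted. With 1 library left out it was 11 without p53 RNAi day 6 replicate 1, 15 without replicate 2 of that group, 14 without unc22 day 6 replicate 2 and 11 without unc22 day 6 replicate 4.

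The largest day 6 differences after zfp1 RNAi, among called transcripts with groups apart, were those of SMED30007346, SMED30000949 and SMED30021987. SMED30000949 was at 178, 216, 221 and 445 RPKM after zfp1 RNAi and at 187, 184, 201 and 277 RPKM after p53 RNAi, against 99.9, 92.3, 103 and 107 RPKM in the control. Its log2 differences were 1.30 ± 0.19 (SE; adjusted p = 5.2e-05, limma) and 1.06 ± 0.19 (SE; adjusted p = 1.2e-03, limma). The value of 445 RPKM belonged to zfp1 RNAi day 6 replicate 4, the shallowest library, and the other 3 were still clear of the control. SMED30007346 was at 92.6, 36.4, 33.5 and 27.3 RPKM with zfp1 RNAi, against 21.8, 17.4, 14.4 and 13.1 RPKM in the control, a log2 difference of 1.31 ± 0.31 (SE; adjusted p = 1.9e-02, limma). The highest of these came from replicate 1, which stood apart; without it the difference was 0.93 and the call was lost, as it was without unc22 replicate 3 or 4. With p53 RNAi it was at 30.4, 31.3, 34.8 and 27.8 RPKM, which were all above the control, but the difference of 0.88 ± 0.31 (SE) was not called (adjusted p = 3.2e-01, limma). SMED30021987 was at 7.78, 4, 4.17 and 4.9 RPKM with zfp1 RNAi, against 1.4, 1.36, 1.9 and 1.88 RPKM in the control (1.20 ± 0.27, SE; adjusted p = 1.2e-02, limma), and lost its call without zfp1 RNAi replicate 1 or unc22 replicate 2. With the other groups left out of the fit, none of these 3 was called after zfp1 RNAi. In that fit the p53 difference of SMED30007346 was called (adjusted p = 1.2e-02, limma), and the p53 call of SMED30000949 held in all 18 alternatives.

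After p53 RNAi at day 6 the largest differences, among called transcripts with groups apart, were those of SMED30018564, SMED30005992 and SMED30020703. SMED30005992 was at 8.78, 7.2, 8.25 and 5.87 RPKM, against 3.07, 2.93, 2.31 and 3.1 RPKM in the control, a log2 difference of 1.14 ± 0.20 (SE; adjusted p = 5.9e-04, limma). It was also called after zfp1 RNAi (0.85 ± 0.20, SE; adjusted p = 1.7e-02, limma), at 5.8, 6.57, 5.59 and 5.67 RPKM. SMED30020703 was at 6.23, 4.43, 2.8 and 3.48 RPKM after p53 RNAi, against 1.09, 1.06, 1.61 and 1.57 RPKM in the control (1.13 ± 0.20, SE; adjusted p = 8.9e-04, limma), and had a log2 difference of 1.08 ± 0.20 (SE; adjusted p = 1.5e-03, limma) after zfp1 RNAi. SMED30018564, the weakest of the 60 in the day 6 control, was at 3.93, 4.93, 2.79 and 1.64 RPKM after p53 RNAi, against 1.32, 0.751, 0.788 and 0.499 RPKM in the control (1.19 ± 0.27, SE; adjusted p = 1.3e-02, limma). SMED30002397, the next weakest, was called after p53 RNAi (0.88 ± 0.20, SE; adjusted p = 1.5e-02, limma), though its lowest p53 library at 1.88 RPKM was below the highest control library at 1.95 RPKM. The call of SMED30018564 was lost without p53 RNAi replicate 1 or 2 or unc22 replicate 4, and that of SMED30002397 in 7 of 17 alternatives. The zfp1 call of SMED30005992 was lost without zfp1 RNAi replicate 2 or unc22 replicate 3.

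Of the 8 transcripts leading at the later days, 3 had risen at day 6 after zfp1 RNAi and 2 after p53 RNAi. SMED30007629 was at 286, 139, 131 and 92.1 RPKM after zfp1 RNAi and at 176, 167, 153 and 115 RPKM after p53 RNAi, against 87, 66.9, 65.1 and 64.6 RPKM in the control, with log2 differences of 1.06 ± 0.21 (SE; adjusted p = 3.1e-03, limma) and 1.09 ± 0.21 (SE; adjusted p = 2.6e-03, limma). SMED30016646 was at 15.5, 14.7, 15.1 and 9.89 RPKM with zfp1 RNAi and at 19.2, 17.5, 16.4 and 12.5 RPKM with p53 RNAi, against 8.63, 7.61, 7.41 and 7.19 RPKM in the control. Its rise after p53 RNAi was 0.99 ± 0.20 (SE; adjusted p = 3.5e-03, limma). Its rise after zfp1 RNAi, 0.75 ± 0.20 (SE; adjusted p = 4.6e-02, limma), lost its call in 11 of 18 alternatives, among them without zfp1 RNAi day 6 replicate 1. SMED30018720, SMED30013245, SMED30035446, SMED30033881 and SMED30003384 were not called at day 6 after either knockdown, with log2 differences from 0.42 to 1.05. SMED30002872, the third most abundant of the 60, was called after both, by 1.17 ± 0.17 and 1.03 ± 0.17 (SE; adjusted p = 3.3e-05 and 2.7e-04, limma).

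Among the day 6 libraries, levels moved most with transcript length in the one that stood apart. In zfp1 RNAi day 6 replicate 1, the 27 transcripts under 1000 bases lay a median of 0.93 above their group mean on the log2 scale, and the 33 longer ones 0.06 above it. Spearman's rho between length and this deviation was -0.81 over the 60 transcripts and -0.46 over the 11932, points that share a library and its RNA. In the other libraries it was between -0.35 and 0.55 for the 60. The mean of zfp1 RNAi day 6 includes replicate 1, so the values of its other libraries depend on it. The lowest, -0.35, was that of zfp1 RNAi day 13 replicate 5, which had -0.39 over the 11932. Control day 13 replicate 5 had -0.23 and -0.29. Transcripts of the 11932 under 1000 bases lay a median of 0.44 above their group mean in either zfp1 library that stood apart. In that control library they lay 0.21 above it. The rule used both of these day 13 libraries. The median day 6 difference between zfp1 RNAi and control was 0.77 for the shorter and 0.60 for the longer of the 60 with all libraries. Without zfp1 RNAi day 6 replicate 1 it was 0.47 and 0.66. After p53 RNAi, with all libraries, it was 0.85 for either class. The calls were 5 of the 27 shorter and 11 of the 33 longer transcripts after zfp1 RNAi, and 4 and 20 after p53 RNAi. Of all tested transcripts, 0.277% of the shorter and 0.55% of the longer were called higher after zfp1 RNAi, and 0.0886% and 0.698% after p53 RNAi. Calls were thus rarer among shorter transcripts in the whole table too. The part of RNA or library quality in these differences was not tested.

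D was larger at day 13 than at day 6 for all 60 transcripts under either knockdown, which follows in part from the rule. The median change of the knockdown level between these days was 0.30 after zfp1 RNAi and 0.41 after p53 RNAi on the log2 scale, and that of the control level was -0.46. The control median was lower at day 13 than at day 6 for 58 of the 60, against 45.2% of the 11932 transcripts of at least 3 RPKM. The knockdown median was higher at day 13 for 46 after zfp1 RNAi and for 55 after p53 RNAi, against 58.3% and 46.7% of the 11932. The size of the fall in the control between days 6 and 13 was larger than the rise of the knockdown level for 40 of the 60 after zfp1 RNAi. After p53 RNAi this held for 32. These counts include transcripts whose knockdown level did not rise. These are descriptions, since the controls of days 9 and 13 chose the transcripts. Control replicate 5 at day 13 was the lowest of the 3 control libraries for 31 of the 60, against 38.5% of the 11932.

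**Figure D4:**
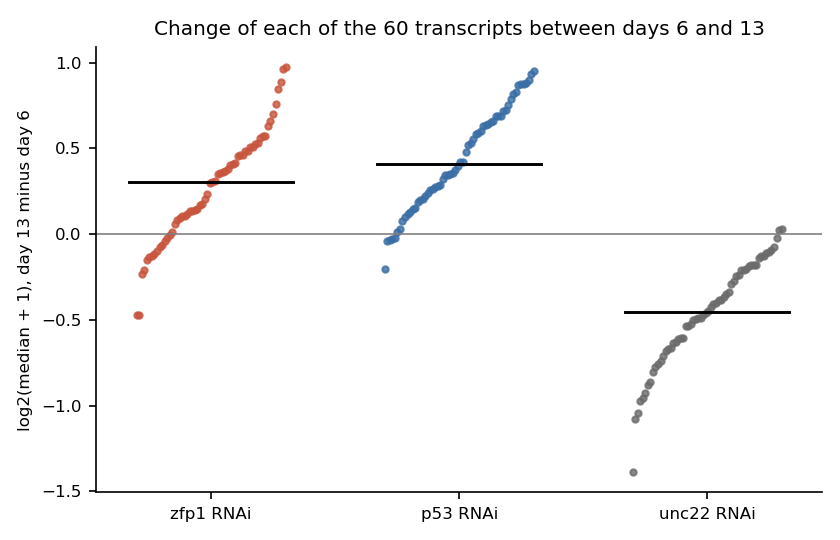
Change of each of the 60 transcripts between days 6 and 13 (vertical axis, log2(median + 1) at day 13 minus day 6; points sorted within each group) after zfp1, p53 and unc22 RNAi from left to right; bars are medians of 0.30, 0.41 and -0.46. Nearly all control points (58) lie below 0, and most knockdown points lie above it.

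The levels also differed between days 9 and 13, and whether the knockdowns differ in this course was not tested. After zfp1 RNAi, D had a median of 0.72 at day 6, 1.39 at day 9 and 1.43 at day 13. The level after zfp1 RNAi itself was lower at day 13 than at day 9 for 50 of the 60, against 46.4% of the 11932. Its median change was -0.26, and the control changed by a median of -0.26 too. After p53 RNAi, D had a median of 0.86, 1.25 and 1.74 at days 6, 9 and 13. The level was higher at day 13 than at day 9 for 41 of the 60, against 47.4% of the 11932, with a median change of 0.22. The rule used the libraries of both later days, so these changes are descriptions. The highest of the 9 group medians fell in p53 RNAi at day 13 for 30 transcripts, in zfp1 RNAi at day 9 for 18, in p53 RNAi at day 9 for 11 and in zfp1 RNAi at day 13 for 1, which was SMED30024537, named after its values were seen. The lowest was in the control at day 13 for 51 and in the control at day 9 for 9. D reached 2 at day 13 for 12 transcripts after p53 RNAi and for 3 after zfp1 RNAi.

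**Figure D5:**
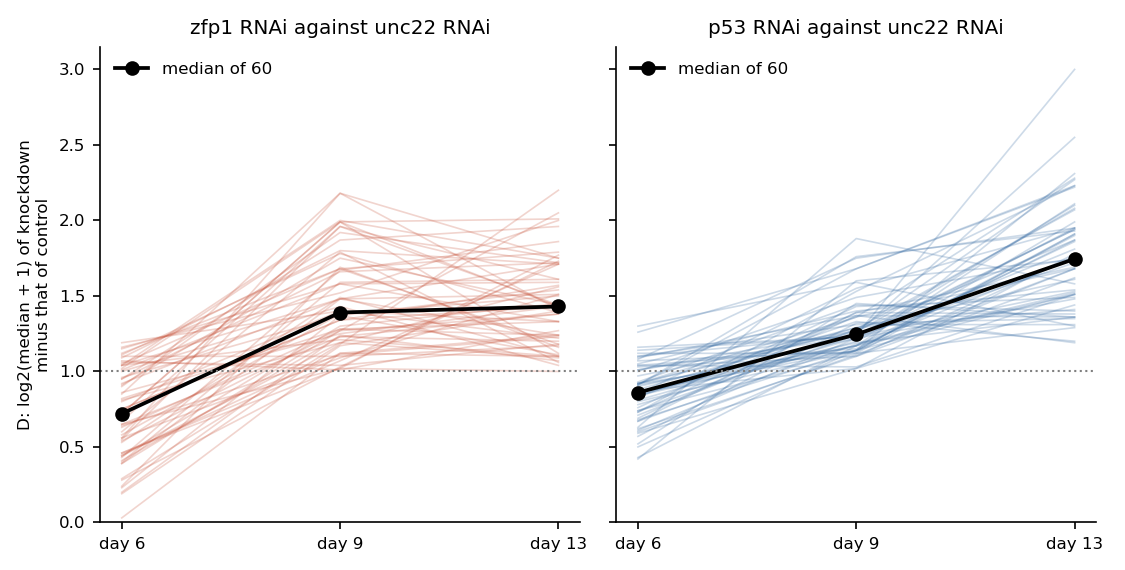
D of each of the 60 transcripts (thin lines) and their median (black) at days 6, 9 and 13, for zfp1 RNAi (left) and p53 RNAi (right) against unc22 RNAi; the vertical axis is log2(median RPKM + 1) of the knockdown minus that of the control, and the dotted line marks the limit of 1 used at days 9 and 13. Medians were 0.72, 1.39 and 1.43 for zfp1 RNAi and 0.86, 1.25 and 1.74 for p53 RNAi; every line starts above 0 at day 6.

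Setting zfp1 RNAi directly against p53 RNAi asked whether the knockdowns differed in the size of the effect. At day 6, whose libraries did not choose the transcripts, none of the 60 was called in limma, where 0.104% of all tested transcripts were. The median log2 difference, zfp1 minus p53, was -0.14, from -0.62 to 0.57, against a median of -0.05 over all tested transcripts. A difference above 0 was found for 19 of the 60 (31.7%), against 42.6% of all tested transcripts. In limma 8 of the 60 were at an unadjusted p under 0.05, of which 1 was higher and the rest lower after zfp1 RNAi. The share of all tested transcripts at such a p was not counted. Voom on the recovered reads also called none at day 6. The absence of calls does not show that the knockdowns acted alike. The standard error of the difference was 0.20 for SMED30016646 and 0.31 for SMED30007346. Such an error belongs to a single transcript and does not measure the spread of the median over the 60.

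At days 9 and 13 the rule chose the transcripts by the levels of both knockdowns, so their difference there is a description, and the share over all tested transcripts is no measure of what such a choice gives. The median log2 difference, zfp1 minus p53, was 0.16 at day 9, from -0.36 to 0.94, and -0.26 at day 13, from -1.10 to 0.50. It was above 0 for 44 of the 60 at day 9 and for 10 at day 13. In limma none was past the threshold at day 9, with 5 at an unadjusted p under 0.05 and none by voom, beside 0.12% of all tested transcripts. At day 13, 7 were past it, all lower after zfp1 RNAi, beside 5.59% lower and 4.7% higher of all tested transcripts. Nothing is read from these counts.

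The most negative differences among these 7 were those of SMED30028884, SMED30030055 and SMED30005571. That threshold, on libraries that the rule used, picked them, so their values are given as a description only. SMED30028884, a short transcript of 391 bases, was at 4.59, 5.85, 4.95 and 1.53 RPKM after zfp1 RNAi at day 13, against 8.98, 9.07, 8.46 and 11.7 RPKM after p53 RNAi, a log2 difference of -1.10 ± 0.31 (SE). The control libraries were at 0.252, 1.76 and 0 RPKM. SMED30030055 was at 11.9, 16.6, 15.9 and 8.33 RPKM after zfp1 RNAi, against 20.3, 22.3, 23.1 and 25.3 RPKM after p53 RNAi (-0.78 ± 0.25, SE). SMED30005571 was at 21.1, 21.1, 23.5 and 16.6 RPKM after zfp1 RNAi, against 28, 28.3, 35.4 and 54.6 RPKM after p53 RNAi (-0.76 ± 0.22, SE). In all 3 the libraries of the knockdowns did not overlap, and the lowest zfp1 value was that of replicate 5, which stood apart. How many of all tested transcripts had every zfp1 library below every p53 library was not counted. Over all alternatives the differences ran from -1.3 to -0.68 for SMED30028884, from -0.9 to -0.59 for SMED30030055 and from -0.97 to -0.55 for SMED30005571.

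Across all days, every one of the 24 knockdown libraries lay above every one of the 11 control libraries for 17 of the 60 transcripts, where this held for 0.224% of all tested transcripts. The rule used the libraries of days 9 and 13 and chose for such a separation, so the share is a description. SMED30007629 was among them, with its lowest knockdown library at 92.1 RPKM and its highest control library at 87 RPKM, and both of these libraries were from day 6.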

How the data were processed

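Polyadenylated RNA of X1 cells was sequenced from TruSeq libraries. The deposited table holds RPKM values per transcript made by the authors. CASAVA 1.8.2, Bowtie and edgeR are named per the submitters' processing notes, with no role for each; the genome or transcript build is not given in the sources used here. Low RPKM values moved in steps, which gave whole reads (100% of values within 0.01 reads for 25462 transcripts) and transcript lengths. Columns left unused numbered 0.

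The 60 transcripts, the lists and the tests were chosen with earlier results of these data known. limma 3.58.1 (R 4.3.3, with an intensity trend) was run on log2(RPKM + 1) over all 9 groups, for transcripts of at least 1 RPKM in at least 3 libraries, with Benjamini-Hochberg adjustment over all tested transcripts. A transcript was called at an adjusted p under 0.05. On this scale the change of low transcripts is understated. The knockdowns were compared with the control at day 6, and with each other at each day; at days 9 and 13 the comparison of the knockdowns is a description, since the rule used those levels. The marker and pathway lists could not be applied, since no gene names were given. Named transcripts were the 8 with the highest smallest D, the 4 of highest level, the 3 largest called changes per test (for day 6, with groups apart), the 3 on either side of the limit, and the 2 lowest and 2 highest in the day 6 control. Alternatives were other pseudocounts, filters, scalings, voom on the recovered reads, the compared groups alone, a replicate block and leaving out each library. The limma step was tested on simulated data.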

Additional observations from a re-analysis of the deposited data

Results flagged for a closer look

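For the 24 named transcripts, 21 of them among the 60, and for the median over the 60, 200 groups of 4 libraries were looked at for a library far from the other 3, and 11 held one, where chance gives about 1 in 20. After zfp1 RNAi at day 6, replicate 1 was far above the others for SMED30007346 (92.6 RPKM, the others 27.3 to 36.4) and SMED30013245 (16.7 RPKM, the others 3.4 to 5.1), and far below them for SMED30030055 (5.17 RPKM, the others 14.1 to 15.2). These transcripts are 542, 613 and 3538 bases long. The same replicate was far above the others for SMED30025751 (66.2 RPKM, the others 13.9 to 19.6), which lies just outside the limit of the rule. Replicate 4 of the same group was far above the others for SMED30000949 (445 RPKM, the others 178 to 221) and below them for SMED30016646 (9.89 RPKM, the others 14.7 to 15.5). Replicate 5 of zfp1 RNAi at day 13 was far above the others for SMED30033881 (9.44 RPKM, the others 3.56 to 4.5).

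After p53 RNAi, replicate 3 was far above the others for SMED30018720 at day 6 (5.59 RPKM, the others 2.24 to 2.47) and for SMED30028884 at day 9 (8.94 RPKM, the others 5.53 to 5.83). In the control at day 6, replicate 1 was far above the others for SMED30007629 (87 RPKM, the others 64.6 to 66.9) and SMED30002397 (1.95 RPKM, the others 0.878 to 1.03).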

How the results depend on the processing

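The rule gave 97 transcripts with 0.5 RPKM added, 34 with 2 RPKM added, 35 with a minimum of 10 RPKM and 5 with D of at least 1.5, which by construction widen or narrow it, and 49 to 71 with 1 library left out. It gave 60 with group means, of which 52 were shared, and 55 without the 3 libraries that stood apart, of which 54 were shared, an alternative added after seeing the data. The day 6 count after zfp1 RNAi (16) was 0 with the other groups left out of the fit and 9 to 21 with 1 library left out; the count after p53 RNAi (24) was 11 to 21 with 1 left out. The rule used the libraries of days 9 and 13, so the counts there are descriptions. Between zfp1 and p53 RNAi at day 9 none was called, and 1 when the 3 libraries that stood apart were dropped. At day 13, 7 were called, against 3 with 0.1 RPKM added, 0 with the other groups left out of the fit, and 0 to 9 with 1 library left out; it was 3, 1 and 0 without p53 RNAi replicates 1, 3 and 4, and 4 and 2 without zfp1 RNAi replicates 1 and 5. With a replicate block, 0 were called after zfp1 RNAi and 47 after p53 RNAi at day 6; between the knockdowns the block gave 0, 0 and 7 at days 6, 9 and 13. The correlation of same-numbered libraries ran from -0.39 to 0.56, and in no comparison were all pairs above 0.1, so the numbers were not taken to pair the libraries. A comparison can miss that limit through a single pair. For p53 RNAi against the control at day 6 the correlations were 0.35, 0.21, -0.04 and 0.4 for replicates 1, 2, 3 and 4. Whether those libraries are paired was not tested. The causes of the changes in counts of calls were not tested, and the share of all tested transcripts called was counted in the main fit alone. Of 793 alternatives for named transcripts, 693 kept direction and call, 81 lost the call, 19 gained one and 0 changed direction. These totals pool comparisons called in the main fit, which alone can lose a call, with comparisons not called there. They are thus no measure of how often a call held, and they include day 13 differences between the knockdowns, which are descriptions. A filter at a mean of 5 RPKM left 42 of the 60 to test. Depth limits the weakest transcripts, such as SMED30018720 with 8 reads in the median library.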
